A study of Homo sapiens with 6 samples.

Results

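Keratins are the intermediate filament proteins of epithelial cells. Their transcripts were compared between HCT116 cells labelled siMTA1, in which MTA1 was targeted, and control HCT116 cells. Members were all protein-coding genes of the deposited table whose symbol is KRT followed by a number and an optional letter from A to C, so that keratin-associated proteins and pseudogenes were left out. The rule found 51 of the 36651 genes in the table, 27 described there as type I and 24 as type II.

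A keratin filament is built from pairs of 1 acidic type I chain and 1 basic or neutral type II chain, so an epithelial cell makes both. Simple epithelia such as the lining of the colon mainly use KRT8 with KRT18 and KRT19, and KRT20 is added as intestinal cells differentiate. Stratified epithelia use other pairs, such as KRT5 with KRT14 in basal cells, KRT1 with KRT10 in upper epidermis and KRT4 with KRT13 in the upper layers of mucosae. A further set, the hair keratins, forms hair and nail. The type I genes lie side by side on chromosome 17 and the type II genes on chromosome 12, apart from KRT18, a type I gene at the edge of the type II cluster.

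HCT116 is a human colorectal carcinoma line of epithelial morphology. The siMTA1 group was 3 libraries of cells called siMTA in the sample descriptions and CrMTA1 in the titles, so that knockdown and genome editing cannot be told apart from the labels. The other group was 3 libraries of cells called control in the descriptions and WT in the titles, with no further agent named for either group. RNA was polyA-selected and sequenced in pairs from directional libraries. MTA1, a subunit of the NuRD chromatin complex, was at 44.55, 43.98 and 47.97 FPKM in siMTA1 libraries 1, 2 and 3, and at 65.90, 67.61 and 66.74 FPKM in control libraries 1, 2 and 3. FPKM is a fragment count scaled by gene length and by the number of mapped fragments in the library. MTA1 was thus lower in each siMTA1 library than in all controls and still present (limma log2 fold change −0.54, SE 0.06, adjusted p = 0.000376).

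Among colon epithelial markers, EPCAM was at 254.77 to 284.97 FPKM in siMTA1 and 265.5 to 317.57 FPKM in control libraries, and CDX2 at 3.91 to 4.46 FPKM in siMTA1 and 4.3 to 5.05 FPKM in control libraries. CDH1, or E-cadherin, was at 33.75 to 35.31 FPKM in siMTA1 and 27.98 to 29.13 FPKM in control libraries (limma log2 fold change 0.27, adjusted p = 0.00874). VIL1, CDH17, LGR5, MUC2 and CEACAM5 were at or under 0.06 FPKM in every library, so the labelled tissue was marked by only part of its usual genes. Of the 9 markers of stratified squamous epithelium found in the table, TP63, KRT5, DSG3 and IVL were at or under 0.04 FPKM in every library and SERPINB3 at or under 0.07 FPKM. DSC3 was at 1.46 to 2.03 FPKM in siMTA1 and 1.76 to 2.02 FPKM in control libraries, and PAX9 at 0.95 to 1.05 FPKM in siMTA1 and 0.9 to 1.06 FPKM in control libraries. KRT14 was at 0.05 to 0.12 FPKM in siMTA1 and 0 to 0.03 FPKM in control libraries, and S100A7 at 0.15 to 0.39 FPKM in siMTA1 and 0 to 0.17 FPKM in control libraries. The summed level of those 9 was 2.93 to 3.4 FPKM in siMTA1 and 2.70 to 3.31 FPKM in control libraries. Fibroblast markers summed to 2.19 to 2.78 FPKM in siMTA1 and 1.94 to 2.01 FPKM in control libraries, nearly all of it COL1A1, while blood markers stayed at or under 0.46 FPKM and endothelial markers at or under 0.29 FPKM. In such bulk RNA, fewer cells of a kind and less RNA per cell cannot be told apart. No label ties the replicates to separate cultures, so the spread behind every p-value here may be technical.

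Keratin expression was concentrated in 3 genes. KRT8, KRT18 and KRT19 held 98.4% of all keratin FPKM in siMTA1 cells and 98.8% in control cells. KRT19 ranked 5th, KRT8 31st and KRT18 48th by mean FPKM among 17656 protein-coding genes. A further 8 genes averaged between 1 and 40 FPKM over the 6 libraries: the type I genes KRT15, KRT10, KRT23, KRT20 and KRT13 and the type II genes KRT80, KRT7 and KRT81. Another 8 averaged from 0.1 to under 1 FPKM. The remaining 32 averaged less than 0.1 FPKM, and 7 of them were listed at 0 in all libraries (KRT1, KRT25, KRT28, KRT35, KRT77, KRT79 and KRT85).

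**Figure D1:**
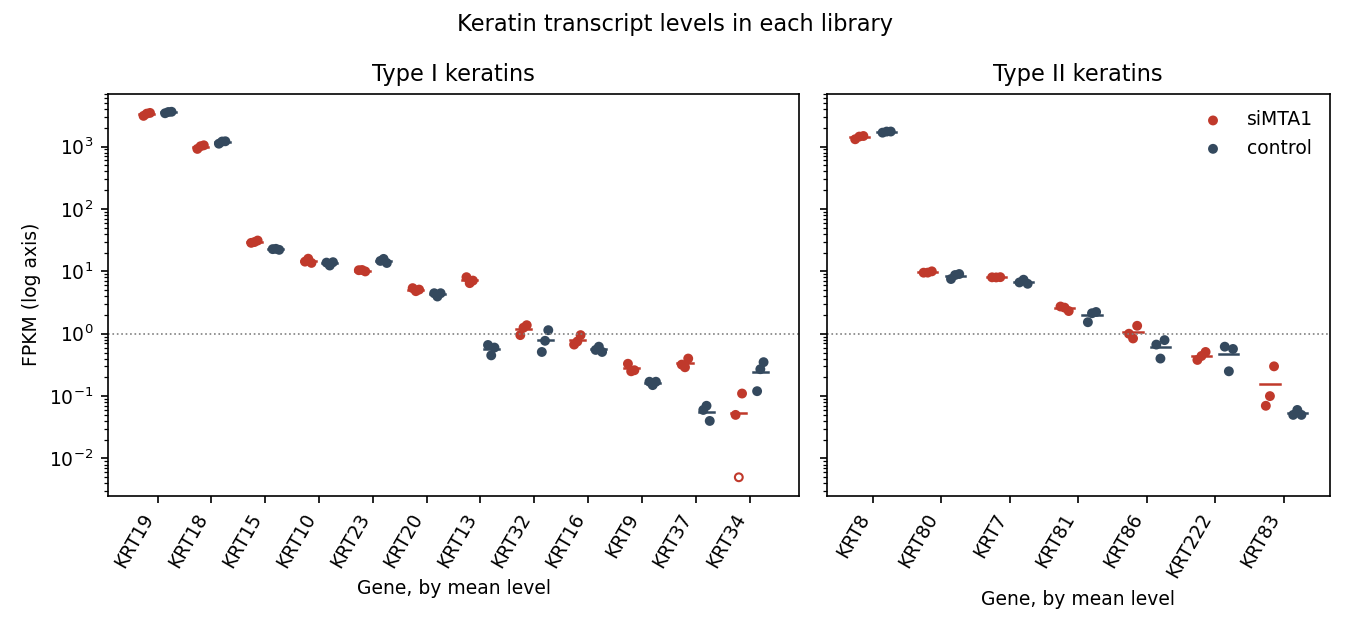
FPKM of the 19 keratins with a mean of at least 0.1 FPKM, on a log axis, siMTA1 libraries in red left of control libraries in dark blue; points are libraries, short lines are means of 3, the dotted line is 1 FPKM and an open circle is a value listed at 0. KRT19, KRT8 and KRT18 stand at 917.61 FPKM or more in every library, and KRT13 is the gene whose groups lie farthest apart among those above 1 FPKM.

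Expressed genes, averaging 1 FPKM or more across libraries, were tested with limma on log2(FPKM + 1), with p-values adjusted over all 12141 such genes. Of the 11 keratins tested, 3 rose (KRT13, KRT15 and KRT7) and 3 fell (KRT8, KRT18 and KRT23) in siMTA1 cells at an adjusted p under 0.05. Among these, KRT13 reached the filter only through its siMTA1 level, so its call is a description and not support. Of all tested genes 18.2% passed, 6.13% higher and 12.1% lower. Among the 7 type I genes 2 rose and 2 fell, with a median log2 fold change of 0.12. Among the 4 type II genes 1 rose and 1 fell, with a median of 0.20. The median over all tested genes was −0.05. The balance of calls over all genes depended on scaling: 744 were higher and 1463 lower as deposited, against 1011 and 895 after quantile normalization, 1000 and 939 after upper-quartile scaling and 1128 and 802 after median centring. For keratins these scalings gave 5 higher and 3 lower, 4 and 2, and 5 and 2. None of the 11 keratins changed sign under any of the alternatives tried.

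**Figure D2:**
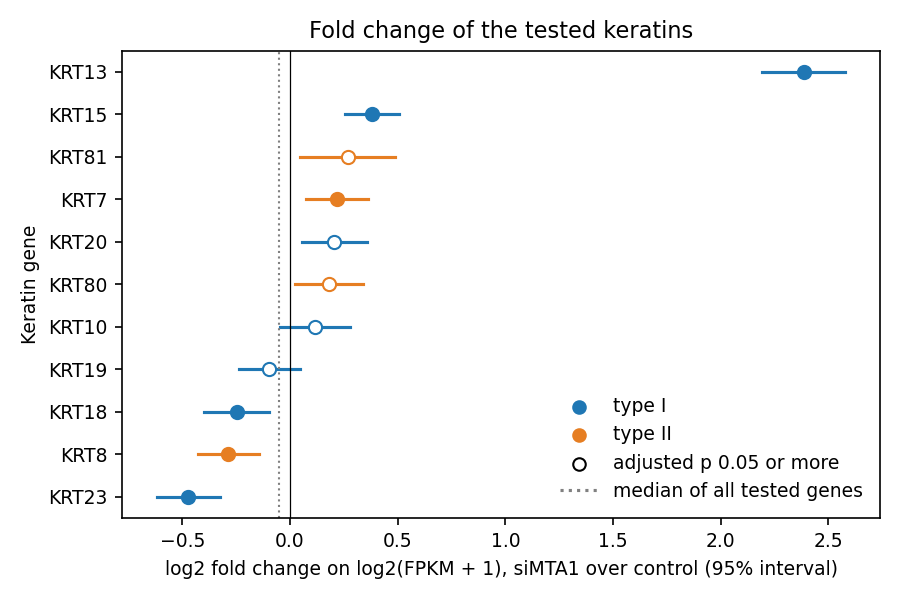
Log2 fold change, siMTA1 over control on the log2(FPKM + 1) scale, of the 11 tested keratins with 95% limma intervals (n = 3 libraries a group); blue is type I, orange type II, filled points passed at an adjusted p under 0.05 and the dotted line is the median of all tested genes. KRT13 lies at 2.39 and the other 10 genes between −0.47 for KRT23 and 0.38 for KRT15.

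The abundant simple-epithelial pair was lower in siMTA1 cells. KRT8, the main type II keratin of simple epithelia, was at 1309.65, 1445.5 and 1476.95 FPKM in siMTA1 libraries 1, 2 and 3, and at 1671.3, 1739.13 and 1742.78 FPKM in control libraries 1, 2 and 3. All siMTA1 values lay below all control values, and the mean fell by 17.9% (limma log2 fold change −0.29, SE 0.06, adjusted p = 0.0148). KRT18, the type I chain that pairs with KRT8, was at 917.61, 1012.56 and 1047.94 FPKM in siMTA1 libraries and at 1112.22, 1204.76 and 1215.64 FPKM in control libraries. Again the groups did not overlap, and the mean fell by 15.7% (limma log2 fold change −0.25, SE 0.07, adjusted p = 0.0336). These calls did not hold throughout. The KRT8 call ended without control library 2 (limma adjusted p = 0.0633) and with no filter on low values (0.179). The KRT18 call ended without control library 2 or 3 (0.118 and 0.0787), without siMTA1 library 1 or 2 (0.0969 and 0.0747), under upper-quartile scaling (0.0767), under median centring (0.0855) and with looser filters on low values (0.0625 to 0.223).

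KRT19, a short type I keratin that lacks most of the usual tail, had the highest FPKM of all members in every library. It was at 3105.61, 3372.85 and 3464.69 FPKM in siMTA1 libraries and at 3421.02, 3579.44 and 3612.19 FPKM in control libraries. The groups overlapped, since siMTA1 library 3 stood above control library 1, and the difference did not pass (limma log2 fold change −0.10, 95% interval −0.24 to 0.05, adjusted p = 0.310). It was −0.05 without siMTA1 library 1 and after upper-quartile scaling, and −0.04 after median centring. In each group library 1 had the lowest values of all 3 abundant keratins. The ratio of KRT19 to KRT8 within a library varied less, at 2.37, 2.33 and 2.35 in siMTA1 libraries 1, 2 and 3 and at 2.05, 2.06 and 2.07 in control libraries 1, 2 and 3. That ratio averaged 2.35 ± 0.0194 in siMTA1 and 2.06 ± 0.0129 in control cells (SD, n = 3 each), and an exact two-sided permutation test gave p = 0.1, the lowest value possible with 3 libraries a group. The ratio was chosen after its values were seen. The KRT8 to KRT18 ratio was 1.41 to 1.43 in siMTA1 and 1.43 to 1.50 in control libraries, with no overlap before rounding.

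Annotated exons of KRT8 and KRT18 overlap on opposite strands in GENCODE 29, and no source used here says whether counting used strand, so fragments from the shared stretch cannot be told apart. The table also lists 48 KRT8 and 59 KRT18 pseudogenes, whose near-identical copies could have taken or lent fragments. The KRT8 pseudogenes summed to 4.26 to 5.77 FPKM in siMTA1 and 5.44 to 7.31 FPKM in control libraries. The KRT18 pseudogenes summed to 1.57 to 1.85 FPKM in siMTA1 and 1.56 to 2.77 FPKM in control libraries. Those sums were small beside the parent genes.

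KRT13, the type I keratin of the upper layers of non-cornified mucosae, had the largest rise among the tested keratins. It lies on chromosome 17 from 41500981 to 41505705 (GRCh38, minus strand, ENSG00000171401.14). KRT13 was at 8.06, 6.47 and 7.11 FPKM in siMTA1 libraries 1, 2 and 3, and at 0.66, 0.45 and 0.60 FPKM in control libraries 1, 2 and 3. The lowest siMTA1 value was far above the highest control value, and the ratio of means was 12.7 (limma log2 fold change 2.39, SE 0.09, adjusted p = 5.34e-07). Its log2 fold change stayed between 2.31 and 3.46 under all 18 alternatives that tested it, and all kept the call. KRT13 reached the filter of 1 FPKM only through its siMTA1 level. Among type I keratins it ranked 8th by mean level in control and 6th in siMTA1 cells, above KRT20. KRT4, the type II chain that pairs with KRT13 in mucosae, was at or under 0.02 FPKM in every library. An antisense gene whose exons overlap KRT13, AC019349.5, was at 0.06 to 0.17 FPKM in siMTA1 and 0.03 to 0.19 FPKM in control libraries.

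KRT15, a type I keratin of basal cells and hair follicle stem cells, is the next keratin gene along the chromosome, 8037 bases from KRT13. It was at 28.61, 29.48 and 31.18 FPKM in siMTA1 libraries 1, 2 and 3, and at 22.70, 22.96 and 22.11 FPKM in control libraries 1, 2 and 3. The groups were well apart, and the mean was 31.7% higher in siMTA1 cells (limma log2 fold change 0.38, SE 0.06, adjusted p = 0.00267). The call held in all 19 alternatives. KRT5, the type II chain of basal cells, was at or under 0.04 FPKM in every library. KRT19 follows KRT15 after 1087 bases, so the 3 neighbours KRT13, KRT15 and KRT19 had log2 fold changes of 2.39, 0.38 and −0.10. On the other side of KRT13, the hair keratin KRT36 was at 0.02 to 0.10 FPKM in siMTA1 and 0.02 to 0.05 FPKM in control libraries.

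**Figure D3:**
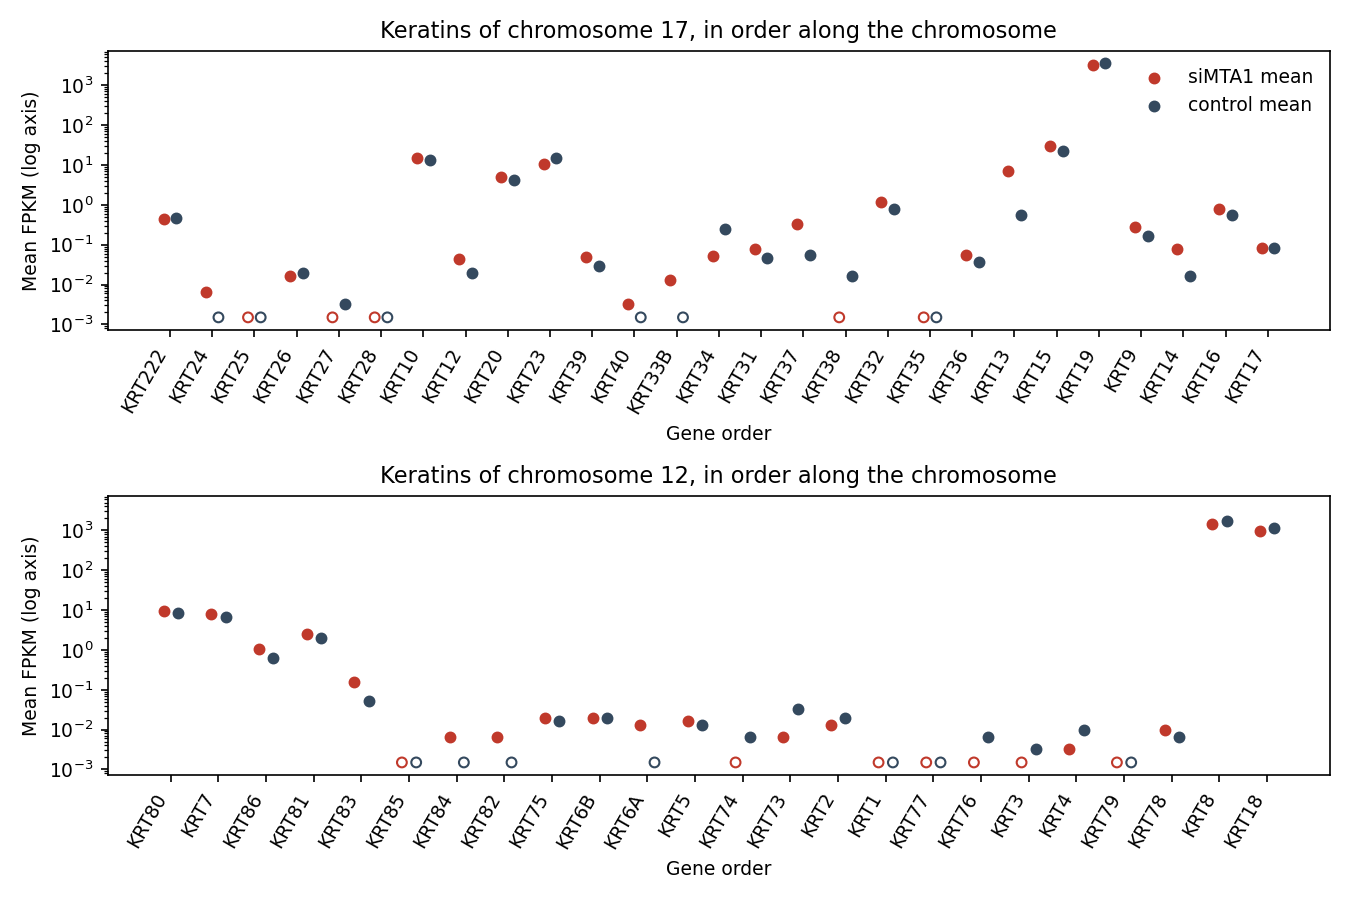
Mean FPKM on a log axis of the 27 keratins on chromosome 17 and the 24 on chromosome 12, ordered along each chromosome and evenly spaced, siMTA1 in red left of control in dark blue; open circles at the bottom are means listed at 0. KRT13 stands at 7.21 FPKM in siMTA1 and 0.570 FPKM in control cells beside KRT15 and KRT19, and KRT8 and KRT18 stand at the end of the chromosome 12 order.

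KRT23, a type I keratin known from glandular epithelia and colon tumours, had the largest fall among the tested keratins. It was at 10.43, 10.51 and 9.97 FPKM in siMTA1 libraries 1, 2 and 3, and at 14.69, 15.83 and 13.61 FPKM in control libraries 1, 2 and 3. No values overlapped, and the mean fell by 30.0% (limma log2 fold change −0.47, SE 0.07, adjusted p = 0.00207). The call held in all 19 alternatives. KRT20, the keratin of differentiated intestinal cells, is the neighbour of KRT23 in the chromosome order. KRT20 was at 5.38, 4.81 and 5.10 FPKM in siMTA1 and at 4.46, 3.95 and 4.46 FPKM in control libraries. Its groups did not overlap, but the difference did not pass (limma log2 fold change 0.21, SE 0.07, adjusted p = 0.0610). It passed under 6 of 18 alternatives, with adjusted p-values there from 0.00534 to 0.0492. Those 6 were TPM, quantile normalization, upper-quartile scaling, median centring, array weights and a fit with library number as a block.

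KRT10, the type I keratin of upper epidermis, was at 14.31, 15.95 and 13.65 FPKM in siMTA1 libraries and at 13.80, 12.40 and 14.02 FPKM in control libraries. These ranges overlapped, with a limma log2 fold change of 0.12 (95% interval −0.05 to 0.28, adjusted p = 0.280). That value was 0.06 without siMTA1 library 2 and 0.07 without control library 2, and KRT10 passed with array weights at 0.20 (adjusted p = 0.0295). Its type II partner KRT1 was listed at 0 in every library. TMEM99, whose exons overlap KRT10 on the other strand, was at 1.31 to 1.41 FPKM in siMTA1 and 1.52 to 1.74 FPKM in control libraries.

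Of the 3 tested type II keratins other than KRT8, KRT7 rose, and KRT80 and KRT81 did not pass. KRT7, a type II keratin of ductal and glandular epithelia, was at 8.02, 7.99 and 8.07 FPKM in siMTA1 libraries 1, 2 and 3, and at 6.64, 7.34 and 6.32 FPKM in control libraries 1, 2 and 3. The siMTA1 values were all higher, by 18.6% in the mean (limma log2 fold change 0.22, SE 0.06, adjusted p = 0.0411). That call was near the threshold and ended in 9 of 19 alternatives, with adjusted p-values there from 0.0635 to 0.119. The call ended without control library 1 or 3 (0.0830 and 0.107), without siMTA1 library 1, 2 or 3 (0.0914, 0.0997 and 0.0869), with array weights (0.0829) and with 3 looser filters on low values. KRT80, a type II keratin found at cell borders in many epithelia, was at 9.52, 9.54 and 10 FPKM in siMTA1 and at 7.53, 8.73 and 9.06 FPKM in control libraries. The hair keratin KRT81 was at 2.73, 2.62 and 2.31 FPKM in siMTA1 and at 1.53, 2.13 and 2.23 FPKM in control libraries. Neither of these overlapped between groups, and neither passed (limma adjusted p = 0.101 for KRT80 and 0.0846 for KRT81). KRT80 passed after quantile normalization (0.0453) and median centring (0.0496), and KRT81 with array weights (0.0489).

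The deposited values were also summed by type, which gives totals of FPKM and not amounts of the chains. FPKM is scaled by gene length, so the size of the type I to type II ratio depends on the lengths used. The annotated exon length was 6881 bases for KRT8 and 2336 bases for KRT19. At those lengths KRT8 had more implied fragments than KRT19 in every library, 515469 against 414969 in siMTA1 library 1. Type I keratins summed to 4092.74, 4455.59 and 4583.2 FPKM in siMTA1 libraries 1, 2 and 3, and to 4591.21, 4841.99 and 4885.09 FPKM in control libraries 1, 2 and 3. Type II keratins summed to 1331.51, 1467.19 and 1499.53 FPKM in siMTA1 and to 1688.61, 1758.12 and 1761.86 FPKM in control libraries. The mean sum fell by 8.29% for type I and fell by 17.5% for type II. The type I to type II ratio averaged 3.06 ± 0.0185 in siMTA1 and 2.75 ± 0.0273 in control cells (SD, n = 3 each), and no siMTA1 library fell within the control range. These sums follow KRT8, KRT18 and KRT19 and were not tested.

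Without those 3 genes the sums lay the other way. The other type I keratins summed to 69.52, 70.18 and 70.57 FPKM in siMTA1 libraries and to 57.97, 57.79 and 57.26 FPKM in control libraries, 21.5% higher in the mean. KRT13 added 6.64 FPKM and KRT15 7.17 FPKM to that difference, and KRT23 fell by 4.41 FPKM. Leaving out KRT13 as well, the sums were 61.46 to 63.71 FPKM in siMTA1 and 56.66 to 57.34 FPKM in control libraries. The other type II keratins summed to 21.86, 21.69 and 22.58 FPKM in siMTA1 and to 17.31, 18.99 and 19.08 FPKM in control libraries, 19.4% higher in the mean. In both classes the libraries of the 2 groups did not overlap.

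**Figure D4:**
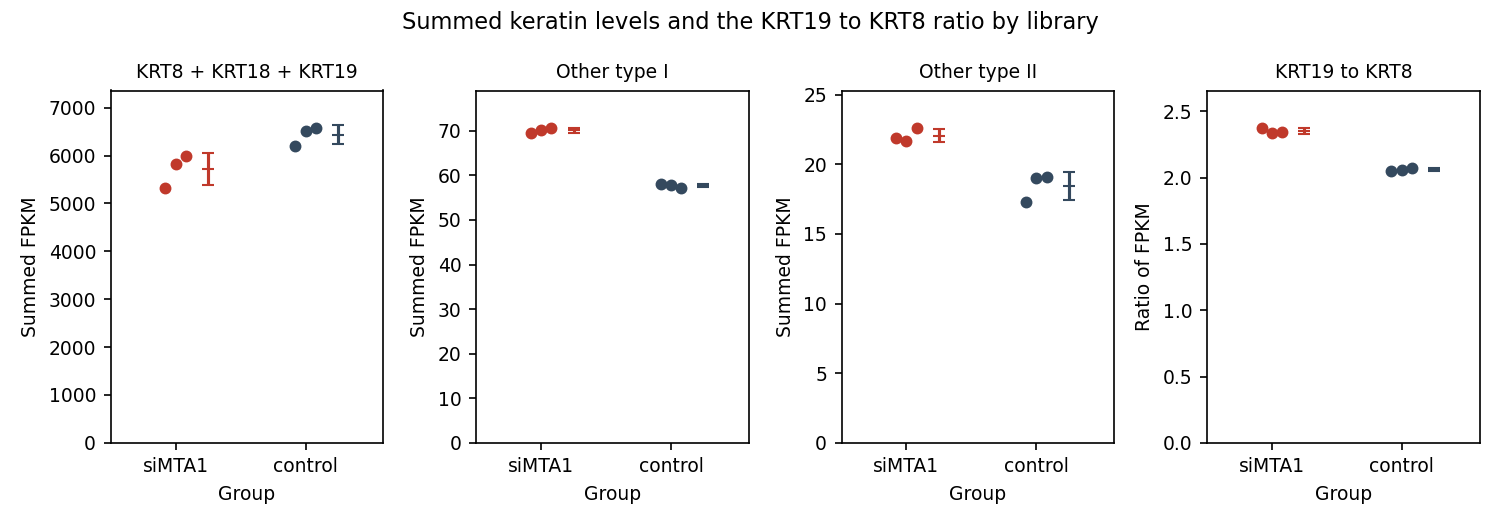
Summed FPKM of KRT8, KRT18 and KRT19, of the other type I keratins and of the other type II keratins, and the KRT19 to KRT8 ratio, in each siMTA1 (red) and control (dark blue) library; bars are mean ± SD of 3 libraries and all axes start at 0. The abundant genes sum to 5332.87 to 5989.58 FPKM in siMTA1 and 6204.54 to 6570.61 FPKM in control libraries, while the other members sum higher in siMTA1 libraries.

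Keratins below 1 FPKM rest on fewer fragments, from 196 for KRT86 in siMTA1 library 3 down to 0 for KRT34 in siMTA1 library 2 among the 8 that averaged 0.1 FPKM or more. The depth implied by the steps of low values was 57200000 to 66700000 fragments in siMTA1 and 42900000 to 65400000 fragments in control libraries. Of the 8 keratins that averaged from 0.1 to under 1 FPKM, 5 had all siMTA1 values above all control values (KRT86, KRT16, KRT9, KRT37 and KRT83), 1 was lower (KRT34) and 2 overlapped (KRT32 and KRT222). Among all 6141 genes at such levels, the groups did not overlap in 18.0%, with siMTA1 higher in 8.96% and lower in 9.01%. Among the 11 tested keratins, 6 were higher and 3 lower without overlap, and over all 12141 tested genes the groups did not overlap in 39.1%, with siMTA1 higher in 13.2% and lower in 25.9%. With a mean of at least 0.1 FPKM required and a pseudocount of 0.1, limma tested 19 keratins among 18282 genes, of which 9.65% passed, 3.53% higher and 6.13% lower. KRT13, KRT15 and KRT37 then rose and KRT8 and KRT23 fell, so KRT37 was the only 1 of the 8 low keratins to pass. Like KRT13 at 1 FPKM, KRT37 reached the filter of 0.1 FPKM only through its siMTA1 level, so its call is given as a description and not as support. KRT83 likewise reached 0.1 FPKM only through its siMTA1 level (means 0.157 FPKM in siMTA1 and 0.0533 FPKM in control). KRT34 reached it only through its control level (0.0533 FPKM in siMTA1 and 0.247 FPKM in control). Their places among the keratins without overlap are a description as well.

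KRT37, a type I hair keratin, was at 0.32, 0.29 and 0.40 FPKM in siMTA1 libraries 1, 2 and 3, and at 0.06, 0.07 and 0.04 FPKM in control libraries 1, 2 and 3. At its exon length of 1475 bases that comes to about 27.0, 28.5 and 36.0 fragments in siMTA1 and 3.8, 5.9 and 3.9 fragments in control libraries. The ratio of means was 5.94 (limma log2 fold change 1.48, SE 0.26, adjusted p = 0.0146 under the looser filter), and its size is imprecise because so few control fragments stand behind it. The call held without any 1 control library (0.0341 to 0.0472) and ended without siMTA1 library 1, 2 or 3 (0.0504, 0.0519 and 0.0557). An annotated antisense gene over KRT37, AC003958.2, was at or under 0.01 FPKM in every library.

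KRT38, the next gene along chromosome 17 and a close relative of KRT37, was listed at 0 in all siMTA1 libraries and at 0.01, 0.04 and 0 FPKM in control libraries. Reads from such close copies could have been split between them, which makes both levels uncertain. In control libraries both rest on few fragments, about 3.8, 5.9 and 3.9 for KRT37 and 1, 5.3 and 0 for KRT38. The windows of 250 bases before the RefSeq starts of both genes are shown because these neighbours have like promoters and, in siMTA1 libraries, unlike levels. They are read from the minus strand of GRCh38.p14, chr17:41424586-41424835 for KRT37 and chr17:41440984-41441233 for KRT38, with capitals for matches to TATAAA and to GGGCGG, searched on both strands.
KRT37: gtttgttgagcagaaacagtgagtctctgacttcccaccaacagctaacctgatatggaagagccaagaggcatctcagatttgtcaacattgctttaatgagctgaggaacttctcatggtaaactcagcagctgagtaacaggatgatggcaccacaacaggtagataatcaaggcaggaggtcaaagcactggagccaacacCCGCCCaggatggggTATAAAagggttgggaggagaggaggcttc
KRT38: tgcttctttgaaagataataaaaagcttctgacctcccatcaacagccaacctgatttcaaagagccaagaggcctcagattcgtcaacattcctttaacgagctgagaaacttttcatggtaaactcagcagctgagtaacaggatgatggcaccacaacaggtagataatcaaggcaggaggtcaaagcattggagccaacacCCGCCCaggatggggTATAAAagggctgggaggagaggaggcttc

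A global alignment of the 2 windows had 223 identical and 25 mismatched positions and 4 gap positions, 88.5% identity. Both hold TATAAA starting 30 bases before the start and the same GGGCGG match on the other strand. RefSeq windows were found for 32 of the 51 keratins, 30 of them with a single window. KRT13, KRT15, KRT18, KRT23 and KRT7 were not among those 30, so of the called keratins the shares cover only KRT8 and KRT37. TATAAA was in 18 of those 30 windows, in 13 of them 20 to 40 bases before the start, and in 10.7% of all 35116 windows. GGGCGG was in 4 of the 30 windows and in 42.6% of all. TGANTCA, the letters bound by AP-1 factors, was in 0 of the 30 and in 6.57% of all. The TATAAA and GGGCGG matches do not overlap in the printed windows, and GGGCGG reads CCGCCC there. A match is a description of letters and shows no binding.

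The other low keratins gave values without a call, and KRT34, KRT9 and KRT16 were picked out after their values were seen. KRT34, a type I hair keratin of the same stretch, was at 0.05, 0 and 0.11 FPKM in siMTA1 and at 0.12, 0.27 and 0.35 FPKM in control libraries (looser filter, limma adjusted p = 0.108). KRT86, a type II hair keratin whose gene spans KRT81, was at 1.0, 0.84 and 1.34 FPKM in siMTA1 and at 0.67, 0.40 and 0.79 FPKM in control libraries (limma adjusted p = 0.106). An antisense gene whose exons overlap KRT86, RP11-845M18.6, was at 0.31 to 0.70 FPKM in siMTA1 and 0.37 to 0.69 FPKM in control libraries. KRT9, the keratin of palm and sole skin, was at 0.33, 0.25 and 0.26 FPKM in siMTA1 and at 0.17, 0.15 and 0.17 FPKM in control libraries (limma adjusted p = 0.181). KRT32, a hair keratin just under the filter of 1 FPKM, was at 0.95 to 1.37 FPKM in siMTA1 and 0.51 to 1.14 FPKM in control libraries.

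KRT16, a type I keratin induced in stressed and wounded skin, was at 0.67, 0.75 and 0.95 FPKM in siMTA1 and at 0.55, 0.62 and 0.51 FPKM in control libraries (looser filter, limma adjusted p = 0.143). Its level is uncertain, because the table lists 4 KRT16 pseudogenes that are near copies of it. These pseudogenes summed to 1.81, 2.39 and 2.62 FPKM in siMTA1 and to 0.82, 1.05 and 0.92 FPKM in control libraries, 2.44 times as high in the mean. KRT222 is described as type II in the table but lies with the type I genes on chromosome 17. It was at 0.38 to 0.51 FPKM in siMTA1 and 0.25 to 0.62 FPKM in control libraries, and its exons overlap those of RP5-1028K7.3 on the same strand, which was at 1.02 to 1.45 FPKM in siMTA1 and 1.27 to 1.46 FPKM in control libraries. The 32 keratins that averaged under 0.1 FPKM included KRT14, KRT17, KRT5, KRT6A and KRT6B, and none of them exceeded 0.13 FPKM in any library.

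Genes around the keratin filament were described from lists of other filaments, anchors, partners, regulators and differentiation products. As deposited, more of all tested genes fell than rose, a balance that turned under quantile normalization, upper-quartile scaling and median centring. Of 7 tested genes for other intermediate filaments, 4 rose and 0 fell, with a median log2 fold change of 0.26, while 6.13% of all tested genes rose and 12.1% fell. NES, or nestin, was at 12.6 ± 0.466 FPKM in siMTA1 and 6.86 ± 0.298 FPKM in control cells (limma log2 fold change 0.79, adjusted p = 5.34e-05). The muscle filament gene DES was at 5.14 ± 0.179 and 3.60 ± 0.292 FPKM in siMTA1 and control cells, and the lens filament gene BFSP1 at 15.5 ± 0.454 and 12.4 ± 0.517 FPKM (limma adjusted p = 0.00398 and 0.00806). The nuclear lamin gene LMNB1 had a log2 fold change of 0.26, and its call ended without control library 2 (0.0516), without siMTA1 library 1 (0.0562) and with no filter (0.0682). All errors here are SD with n = 3.

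Of 14 tested genes of desmosomes and plakins, which tie keratin filaments to cell junctions, 5 rose and 0 fell, with a median of 0.06, against 6.13% and 12.1% of all tested genes. EPPK1, or epiplakin, is among the 5 and reached the filter of 1 FPKM only through its siMTA1 level, at 1.19 ± 0.0723 FPKM in siMTA1 and 0.847 ± 0.0379 FPKM in control cells (SD, n = 3). PPL, or periplakin, was at 55.6 ± 2.63 FPKM in siMTA1 and 40.3 ± 3.02 FPKM in control cells, and plectin (PLEC) at 91.1 ± 7.21 and 68.7 ± 1.01 FPKM (SD, n = 3; limma adjusted p = 0.00298 and 0.00406). Envoplakin (EVPL), the partner of periplakin, had a log2 fold change of 0.30, and desmoplakin (DSP) one of 0.20. The count was 3 rather than 5 without control library 2 or 3 or any 1 siMTA1 library, and the DSP call was among those that ended there (limma adjusted p = 0.0556 to 0.0820). With no filter on low values the count was 2.

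Of 15 tested keratin partners and modifiers, 4 fell and 0 rose, with a median of −0.12. Over all tested genes 12.1% fell and 6.13% rose, a balance that turned under quantile normalization, upper-quartile scaling and median centring. SFN, or 14-3-3 sigma, was at 199.4 ± 13.6 FPKM in siMTA1 and 273.0 ± 7.62 FPKM in control cells (SD, n = 3; limma log2 fold change −0.45, adjusted p = 0.00202). The chaperone genes HSPA8 and HSPB1 had log2 fold changes of −0.40 and −0.41. FAM83H, which recruits casein kinase to keratin filaments, was at −0.24, and its call ended in 8 of 19 alternatives, among them quantile normalization, upper-quartile scaling and median centring (0.0603 to 0.0699) and those without control library 2 or 3 or siMTA1 library 1 or 2 (0.0826 to 0.108). With no filter on low values the list count was 2.

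Of 15 tested transcription factors and splicing regulators known to act on epithelial genes, 4 rose and 2 fell, with a median of 0.08, against 6.13% and 12.1% of all tested genes. EHF, an epithelial ETS factor, was at 20.9 ± 0.553 FPKM in siMTA1 and 38.3 ± 1.52 FPKM in control cells (SD, n = 3 each; limma log2 fold change −0.84, adjusted p = 2.76e-05). KLF4, a factor of epithelial differentiation, was at 15.7 ± 0.519 and 11.1 ± 0.452 FPKM in siMTA1 and control cells, and KLF5 at 23.0 ± 1.48 and 16.8 ± 0.538 FPKM (limma adjusted p = 0.00116 and 0.00267). GRHL1 had a log2 fold change of 0.34. The count that fell was 1 rather than 2 when any 1 library was left out, under TPM, quantile normalization, upper-quartile scaling and median centring and with 3 looser filters on low values, and it was 4 with array weights. Of 5 tested genes of the cornified envelope and of shedding skin, 1 rose and 2 fell, with a median of −0.08, beside the same 6.13% and 12.1% of all tested genes. The kallikrein peptidases KLK7 and KLK5 were at 7.96 ± 0.460 and 0.96 ± 0.0954 FPKM in siMTA1 cells, and at 12.5 ± 0.705 and 1.77 ± 0.133 FPKM in control cells (SD, n = 3; limma adjusted p = 0.000572 and 0.00273). KLK5 reached the filter of 1 FPKM only through its control level. CSTA, or cystatin A, had a log2 fold change of 0.25, and its call ended without control library 2 (0.0744) and without siMTA1 library 1 or 3 (0.0567 and 0.0621) and with no filter (0.0748).

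**Figure D5:**
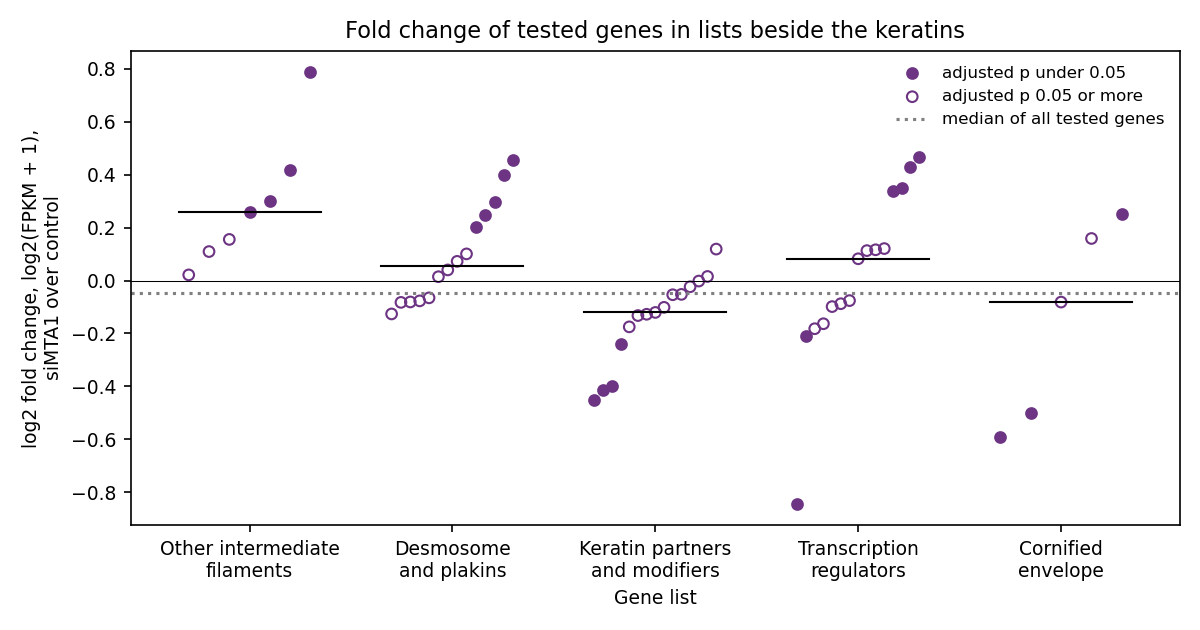
Log2 fold change, siMTA1 over control on the log2(FPKM + 1) scale, of each tested gene in 5 lists; filled points passed at an adjusted p under 0.05, black bars are list medians and the dotted line is the median of all tested genes. Filled points of the first 2 lists all lie above 0 and those of keratin partners below 0, while the other 2 lists have both.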

How the data were processed

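The authors deposited 1 table of FPKM for 36651 genes in 6 libraries, printed to 2 decimals. Per the submitters' processing notes, cutadapt, TopHat2, edgeR and the build GRCh38 were used, without versions or roles. The sources used here do not give the counter, strand setting or gene lengths, and no counts were used. Column names matched sample descriptions.

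Genes averaging 1 FPKM or more were tested with limma 3.58.1 in R 4.3.3 on log2(FPKM + 1), siMTA1 over control, with an intensity trend, no covariates and Benjamini-Hochberg adjustment over all 12141 genes, two-sided. This scale understates changes of low genes. Depth was inferred, in genes under 150 bases, as the number of fragments that brought the largest number of low FPKM values to 1 fragment, within 0.04. Between 94.9% and 97.2% of low values were then whole within 0.05 beyond rounding. Coordinates and lengths are from GENCODE 29, which holds all 51 keratins, 44 of them under the same identifier version as deposited. KRT7, KRT8, KRT10 and KRT15 had another version, so their lengths, gaps and overlaps may differ from those behind the FPKM.

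The members and lists were chosen with earlier results of these data known. Named were keratins that were called or averaged 1 FPKM in a group, lower ones beside them in the cluster, and up to 4 called genes a list with the smallest adjusted p. Proteins were not analysed here. Promoters come from RefSeq tables for GRCh38.p14. Alternatives changed the pseudocount, filter, scaling, variance model, replicate block and libraries. Work used Python 3.11.15, pandas 2.3.3 and matplotlib 3.10.9.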

Additional observations from a re-analysis of the deposited data

How the results depend on the processing

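The keratin calls were 3 higher and 3 lower. The higher count was 5 under quantile normalization, median centring and array weights, and 2 to 3 when 1 library was left out. The lower count was 1 with no filter on low values and 1 to 3 when 1 library was left out, with 1 without control library 2. The 2207 genes called over the whole table became 676 with no filter, 4049 with array weights and 1046 to 1773 when 1 library was left out, with 1046 without control library 2 and 1066 without siMTA1 library 2. The type I to type II ratio, siMTA1 over control, was 0.15 on the log2 scale and 0.11 after quantile normalization. The cause of these shifts was not tested. KRT13, KRT15 and KRT23 kept their calls in every alternative that tested them, and KRT8, KRT18 and KRT7 did not. For KRT13, which reached the filter of 1 FPKM only through its siMTA1 level, this is a description and not support. Of the 19 named list genes, 13 kept their calls in all alternatives and none changed sign. The labels do not say what libraries of 1 number share. Deviations from group means over 12141 genes correlated at 0.331, 0.0219 and 0.219 for numbers 1, 2 and 3, and at -0.277 to 0.0712 between numbers. Since number 2 stayed under 0.1, and siMTA1 library 2 did not correlate best with its own number, the numbers were not taken as pairs in the main fit. Numbers 1 and 3 lay above all values between numbers, so a fit with a replicate block is given as well. With the replicate block, 4 keratins were higher and 3 lower and 3031 genes were called. The alternatives for KRT37 without 1 library or with another pseudocount were chosen after seeing the data. Values below 0.1 FPKM mostly rest on a few fragments, which limits their precision.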
